A study of Homo sapiens with 4 samples.

Results

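The 48 genes described here encode the subunits, activators, inhibitor and assembly factors of the proteasome. They were chosen by name, as every gene whose symbol consists of PSM, a letter from A to G and a number. The authors' matrix has 57820 rows, of which 50 matched, and of the 2 symbols that occurred more than once, PSMA1 and PSMA2, the row with the larger sum was kept. The study used U87, an established glioma line of human origin. Cells with a short hairpin RNA named for GLUD1 (shGlud1, 2 libraries) were compared with cells that carried the hairpin labelled shNT (2 libraries). Both groups were grown in DMEM with 10% bovine calf serum and had spent 6 h in low glucose, so no group at another glucose level enters any value below. The labels give neither the number of hairpins or clones used nor whether replicates were separate cultures. The p-values therefore reflect the spread among these 4 libraries alone, and that spread may be technical.

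The proteasome degrades proteins that carry ubiquitin chains. Its barrel-shaped core holds rings of alpha subunits (PSMA genes) around rings of beta subunits (PSMB genes), and the beta subunits PSMB5, PSMB6 and PSMB7 cut peptide bonds. A regulatory cap of ATPases (PSMC genes) and other subunits (PSMD genes) binds ubiquitin chains, unfolds substrates and feeds them into the core. Interferon induces PSMB8, PSMB9 and PSMB10, which take the places of PSMB5, PSMB6 and PSMB7 in the immunoproteasome of antigen-presenting cells. Cells short of proteasome activity raise many of these genes together through the transcription factor NFE2L1.

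Expected counts, estimated reads per gene that need not be whole, summed to 17407149 and 18537314 in the shGlud1 libraries and to 16546849 and 18118503 in the shNT libraries. GLUD1, the mitochondrial glutamate dehydrogenase targeted by the hairpin, had 34.0 and 44.5 CPM (read counts scaled to library size) in the shGlud1 libraries, against 78.1 and 76.5 CPM in the shNT libraries. Its log2 fold change, shGlud1 over shNT, was -0.98 with a standard error (SE) of 0.13, and edgeR's quasi-likelihood test gave an adjusted p of 1.26e-12. CPM here are scaled with TMM factors, which were 1.15 and 1.24 for the shGlud1 libraries and 0.826 and 0.845 for the shNT libraries. The median log2 fold change of all 14616 genes tested was 0.056 with TMM factors and 0.575 when libraries were scaled by their total counts alone. Values are with TMM factors unless another scale is named. Of the markers of a glial line VIM, NES and CD44 were detected, whereas GFAP, S100B and OLIG2 did not exceed 0.392 CPM and SOX2 was at 0 in all 4 libraries. NES (log2 fold change 1.935) and VIM (0.99) were called higher. They also were with total counts (2.453 and 1.514) and with a trend on coding length removed, as described below (1.14 and 0.867). CD44 (0.09) was not called, but was called higher with total counts (0.61) and lower with that trend removed (-0.325). Of 6 leukocyte markers PTPRC, CD3E and AIF1 were at or near 0, at most 0.0733 CPM, ITGAM did not exceed 0.588 CPM, and CD14 and CD68 were higher and are given with the immunoproteasome. Markers summed over a list had, in the shGlud1 libraries, 0.4998 and 0.521 CPM (endothelial), 0.950 and 0.955 CPM (epithelial), 7.65 and 8.59 CPM (neuron) and 229.7 and 205 CPM (mesenchymal). In the shNT libraries they had 0.659 and 0.588 CPM (endothelial), 3.88 and 3.14 CPM (epithelial), 5.79 and 5.23 CPM (neuron) and 145 and 127 CPM (mesenchymal). Of these, KRT18 (-1.95) was called lower and RBFOX3 (1.80), COL1A1 (0.50) and COL1A2 (0.70) higher, and their part in the results was not tested.

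Of the 48 proteasome genes, 46 had enough counts to be tested. The others were PSMA8, an alpha subunit of the testis, with 0 counts in every library, which allows up to 0.13 to 0.22 CPM (3 counts) depending on the library, and PSMB11, a beta subunit of the thymus, with 0 and 0 counts in the shGlud1 libraries and 2 and 0 in the shNT libraries. At an adjusted p under 0.05, 27 of the 46 (58.7%) were lower in shGlud1 cells, whereas 29.1% of all genes tested were lower. Another 6 (13.0%) were higher, whereas 31.9% of all genes tested were higher, and 13 were not called. Without shNT replicate 2 fewer members were higher, and the share over all genes in that fit was not counted. In bulk libraries, fewer cells that express a gene and less RNA per cell cannot be told apart. The median log2 fold change of the 46 was -0.43. With total counts, 12 of the 46 (26.1%) were lower and 18 (39.1%) higher, beside 13.7% and 51.9% of all genes tested, and the median of the 46 was 0.087. The sign of the median thus depended on the scale. Changing the library scaling shifts all genes nearly alike, so the distance of this median below that of all genes is 1 observation and not 2. In the plot of members by library the replicates of a group lie close together: the median absolute log2 difference between replicates over the 46 genes was 0.123 in shGlud1 and 0.108 in shNT. Groups of 2 libraries can lie apart in genes that are not called, as they did in PSMF1, PSMG2 and PSMD14. The share of all genes tested whose groups lie apart was not counted, so below it is a description only.

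**Figure D1:**
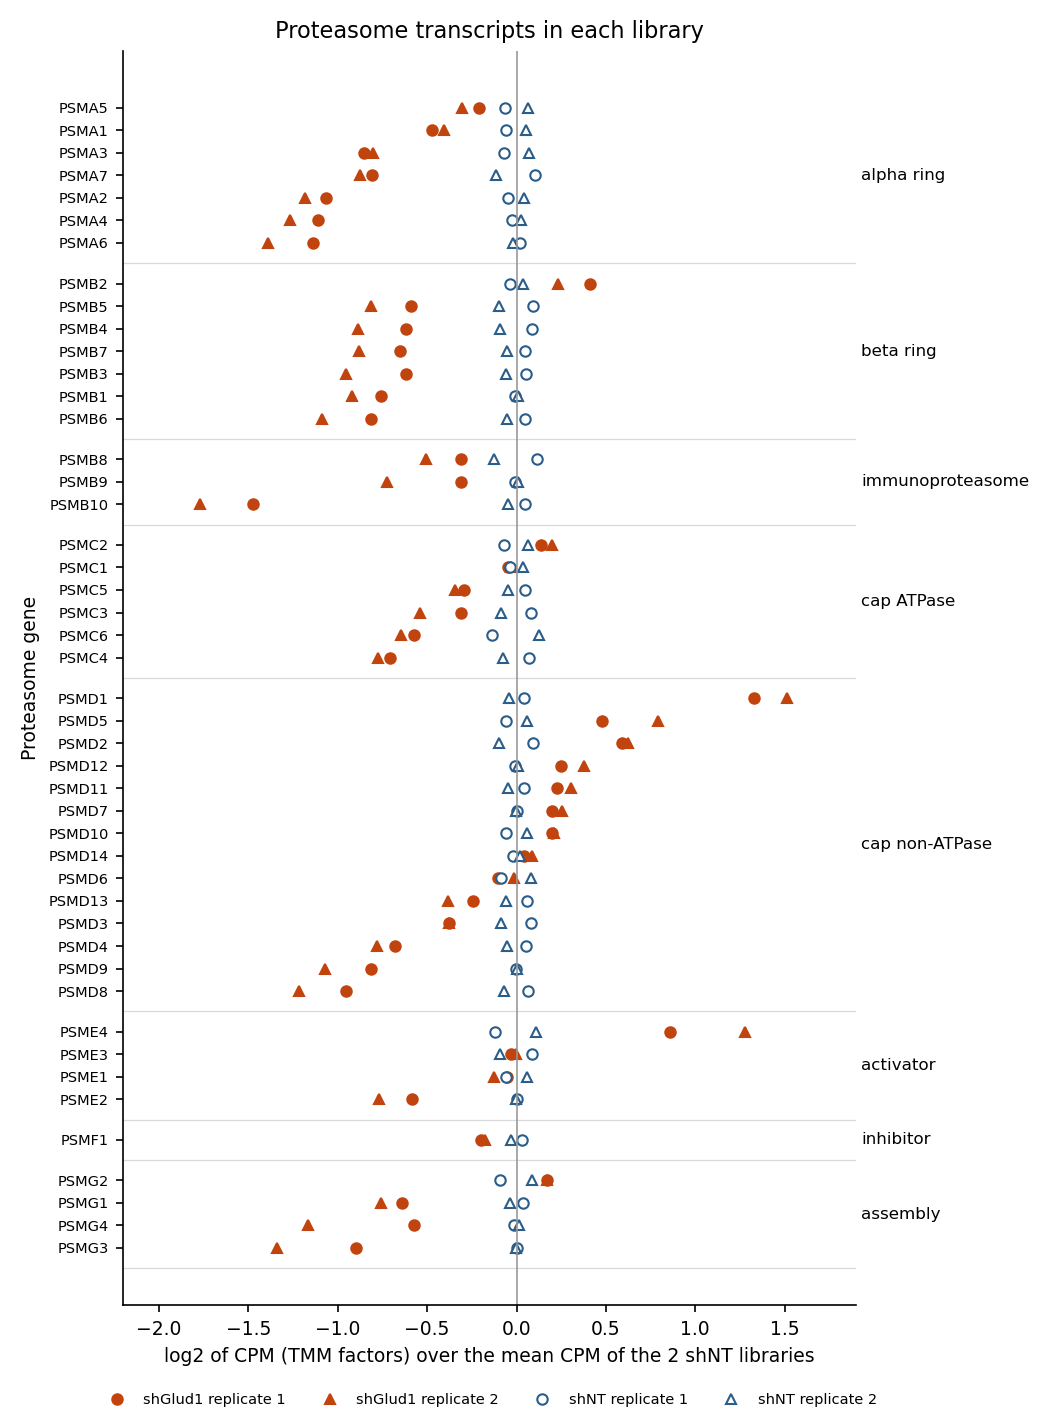
Each row is 1 of the 46 tested proteasome genes, and the x axis is the log2 of its CPM with TMM factors over the mean of the 2 shNT libraries, with filled red symbols for shGlud1 and open blue symbols for shNT (circles replicate 1, triangles replicate 2). Core genes other than PSMB2 lie to the left in both shGlud1 libraries, and PSMD1, PSMD5, PSMD2 and PSME4 lie to the right.

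Promoter windows from RefSeq (GRCh38.p14, 250 bases before to 50 after each start) were found for 42 of the 48 genes, and 4 short motifs were searched in them on both strands. No matches of different motifs overlapped in these windows. TGACNNNGC, the core of the antioxidant response element, which NFE2L1 and NFE2L2 bind with small MAF partners, was in the windows of 15 of the 42 (35.7%) and in those of 16.1% of all 27305 genes. By call with TMM factors, it was in 4 of the 6 genes called higher (PSMD1, PSME4, PSMD5 and PSMD12), in 9 of the 21 called lower that had a window and in 2 of the 13 not called. The core of the interferon-stimulated response element, GAAA followed by 2 bases of any kind and another GAAA, was in 7 of the 42 (16.7%) and in 4.38% of all genes, and those 7 were PSMA4, PSMB4, PSMB8, PSMB10, PSME1, PSME2 and PSMG4. GAANNTTC, a core of the heat shock element, was in 0 of the 42 and in 8.21% of all genes, and CCAAT was in 20 (47.6%) and in 39.7% of all genes. A match is a description of the letters in the window, and the windows of all genes were not matched for base composition. The windows below belong to the 2 genes with the highest and the 2 with the lowest log2 fold change, in capitals where the window matches the first or second motif. PSMD1 (chr2:231056617-231056916, plus strand) matches the first motif 39 bases after the start, PSME4 (chr2:53970944-53971243, minus strand) matches it on the opposite strand from 34 bases before the start, PSMB10 (chr16:67936801-67937100, minus strand) matches the second motif from 21 bases before the start, and the first of the 2 windows of PSMA6 (chr14:35292067-35292366, plus strand) matches neither.
PSMD1: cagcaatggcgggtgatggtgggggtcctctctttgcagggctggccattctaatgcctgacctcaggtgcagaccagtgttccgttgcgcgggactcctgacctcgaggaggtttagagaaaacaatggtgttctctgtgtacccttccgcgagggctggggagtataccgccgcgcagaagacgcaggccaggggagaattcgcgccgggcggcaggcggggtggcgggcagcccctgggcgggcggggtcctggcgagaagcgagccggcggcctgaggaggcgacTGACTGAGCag
PSME4: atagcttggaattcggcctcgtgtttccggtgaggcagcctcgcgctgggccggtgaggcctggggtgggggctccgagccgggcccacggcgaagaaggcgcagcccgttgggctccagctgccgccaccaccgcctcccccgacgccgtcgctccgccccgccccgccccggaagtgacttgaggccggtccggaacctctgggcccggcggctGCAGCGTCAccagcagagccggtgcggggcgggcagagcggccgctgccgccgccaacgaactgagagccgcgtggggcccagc
PSMB10: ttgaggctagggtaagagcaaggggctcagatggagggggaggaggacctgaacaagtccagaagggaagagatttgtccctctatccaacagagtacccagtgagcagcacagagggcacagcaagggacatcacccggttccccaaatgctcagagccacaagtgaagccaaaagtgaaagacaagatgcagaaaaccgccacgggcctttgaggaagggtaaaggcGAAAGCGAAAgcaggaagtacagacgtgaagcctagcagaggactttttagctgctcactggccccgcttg
PSMA6: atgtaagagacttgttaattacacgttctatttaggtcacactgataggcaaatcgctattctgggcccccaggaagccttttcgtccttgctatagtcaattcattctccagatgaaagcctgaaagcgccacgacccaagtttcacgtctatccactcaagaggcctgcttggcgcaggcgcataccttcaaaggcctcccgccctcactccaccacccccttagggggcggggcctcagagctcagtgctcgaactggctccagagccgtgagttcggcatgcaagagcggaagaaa

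The constitutive core had the most genes called lower of all parts, although the share lower was higher in the immunoproteasome (3 of 3). Of the 14 tested core genes 12 (85.7%) were lower and 1, PSMB2, higher (7.14%) with TMM factors, beside 29.1% and 31.9% of all genes. PSMA5 was not called, and the median log2 fold change of the core was -0.80. With total counts 8 (57.1%) were lower and 2 (14.3%) higher, PSMB2 and PSMA5, beside 13.7% and 51.9% of all genes. The core median was then -0.29. All 7 tested alpha-ring genes had negative log2 fold changes with TMM factors, between -1.26 for PSMA6 and -0.26 for PSMA5, although those of PSMA1 and PSMA5 were positive, at 0.083 and 0.26, with total counts. PSMA6, an alpha subunit (ENSG00000100902, GRCh38 chromosome 14, 35278633 to 35317493, plus strand), had 164 and 138 CPM in the shGlud1 libraries, against 366 and 356 CPM in the shNT libraries. PSMA4, also of the alpha ring (ENSG00000041357, chromosome 15, 78540405 to 78552419, plus strand), had 211 and 189 CPM in the shGlud1 libraries, against 447 and 464 CPM in the shNT libraries. In both genes each shGlud1 library lay far below each shNT library, and the groups did not overlap. The log2 fold change of PSMA6 was -1.26 (SE 0.14) at an adjusted p of 3.35e-18 in edgeR's quasi-likelihood test, and it was -0.75 with total counts (adjusted p = 9.54e-09). That of PSMA4 was -1.19 (SE 0.14, adjusted p = 1.2e-15, the same test), and -0.67 with total counts (adjusted p = 1.33e-07). The counts of PSMA6 and PSMA2 were not whole in any library, so part of their reads was divided among genes. PSMA2 was lower as well, with a log2 fold change of -1.12 (-0.61 with total counts).

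The catalytic beta subunits were all lower with TMM factors. PSMB5, which holds the chymotrypsin-like site, had 241 and 206 CPM in the shGlud1 libraries, against 388 and 339 CPM in the shNT libraries. PSMB6, with the caspase-like site, had 359 and 297 CPM in the shGlud1 libraries, against 653 and 610 CPM in the shNT libraries. PSMB7, with the trypsin-like site, had 730 and 622 CPM in the shGlud1 libraries, against 1185 and 1104 CPM in the shNT libraries. For each of the 3 genes both shGlud1 libraries lay below both shNT libraries, and replicate 1 was the higher of the shGlud1 pair. Their log2 fold changes were -0.70 for PSMB5 (SE 0.14, adjusted p = 2.24e-06), -0.94 for PSMB6 (SE 0.15, adjusted p = 8.54e-10) and -0.76 for PSMB7 (SE 0.15, adjusted p = 3.34e-06) in edgeR's quasi-likelihood test. With total counts they were -0.18, -0.43 and -0.24, and of these PSMB6 alone was called (adjusted p = 4.72e-04). With a trend on the longest transcript removed they were -0.17 for PSMB5 (adjusted p = 0.242), -0.29 for PSMB6 and -0.14 for PSMB7 (adjusted p = 0.351). The non-catalytic beta subunits PSMB1, PSMB3 and PSMB4 had log2 fold changes of -0.84, -0.78 and -0.75, and with total counts PSMB1 and PSMB3 stayed called lower, while PSMB4 did not (adjusted p = 0.0674). PSMB2, a neighbour of these in the same ring, went the other way with a log2 fold change of 0.32 (adjusted p = 0.0235), and with total counts it was 0.84 (adjusted p = 6.1e-10). The TMM call of PSMB2 was lost when any of 3 libraries was left out: its adjusted p was 0.113 without shGlud1 replicate 1, 0.244 without shNT replicate 1 and 0.138 without shNT replicate 2.

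The 3 immunoproteasome genes were lower with TMM factors, and PSMB10 had the lowest log2 fold change of all proteasome genes. PSMB10 (ENSG00000205220, chromosome 16, 67934502 to 67937087, minus strand) had 94.6 and 77.2 CPM in the shGlud1 libraries, against 272 and 254 CPM in the shNT libraries. PSMB8 had 110 and 96.0 CPM in the shGlud1 libraries, against 148 and 125 CPM in the shNT libraries. PSMB9 had 86.96 and 65.4 CPM in the shGlud1 libraries, against 107 and 109 CPM in the shNT libraries. The groups lay apart in each, as they also did in PSMF1, which was not called, and the gap was wide only in PSMB10. The shGlud1 libraries of PSMB9 stood further apart from each other than those of shNT. The log2 fold change of PSMB10 was -1.62 (SE 0.14, adjusted p = 2.06e-30), that of PSMB9 -0.50 (SE 0.13, adjusted p = 2.65e-04) and that of PSMB8 -0.41 (SE 0.13, adjusted p = 4.01e-03), by edgeR's quasi-likelihood test. With total counts PSMB10 was still lower at -1.10 (adjusted p = 4.83e-14), while PSMB8 and PSMB9 had 0.11 and 0.008 and were not called. PSMB8 lost its TMM call without shNT replicate 1 (adjusted p = 0.237). PSMB8 and PSMB9 overlap on opposite strands, and the library kit does not mark strand, so reads from the shared stretch cannot be told apart.

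A ratio of a pair of genes within a library does not depend on how the library is scaled. The log2 ratio of expected counts of PSMB10 over PSMB7, whose place it takes, was -2.95 and -3.01 in the shGlud1 libraries, against -2.12 and -2.12 in the shNT libraries, a difference of -0.86. PSMB8 over PSMB5 ran the other way, with -1.14 and -1.10 in the shGlud1 libraries, against -1.39 and -1.45 in the shNT libraries, a difference of 0.30. PSMB9 over PSMB6 had -2.05 and -2.18 in the shGlud1 libraries, against -2.61 and -2.49 in the shNT libraries, a difference of 0.43. The groups did not overlap in any of the 3 ratios: relative to the constitutive subunit, PSMB10 was lower in shGlud1 cells, and PSMB8 and PSMB9 were higher. The last 2 did not hold when a trend on the longest transcript was removed: the difference of log2 fold changes was then -0.05 for PSMB8 minus PSMB5, -0.13 for PSMB9 minus PSMB6 and -0.92 for PSMB10 minus PSMB7. Each exact two-sided permutation test gave p = 0.33, the smallest that 2 against 2 libraries allow. The ratios compare counts and not levels per length, so that only their difference between groups is read. Leukocytes are rich in immunoproteasomes. Their markers summed to 290 and 276 CPM in the shGlud1 libraries and to 402 and 360.0 CPM in the shNT libraries, nearly all of it CD68, and CD14 had 0.05 and 0.521 CPM in the shGlud1 libraries, against 2.86 and 2.74 CPM in the shNT libraries. CD14 and CD68 were the only 2 of the 6 leukocyte markers with enough counts to test, and both were called lower with TMM factors, although CD68 was not with total counts (0.10, adjusted p = 0.416). Their part in the result was not tested.

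**Figure D2:**
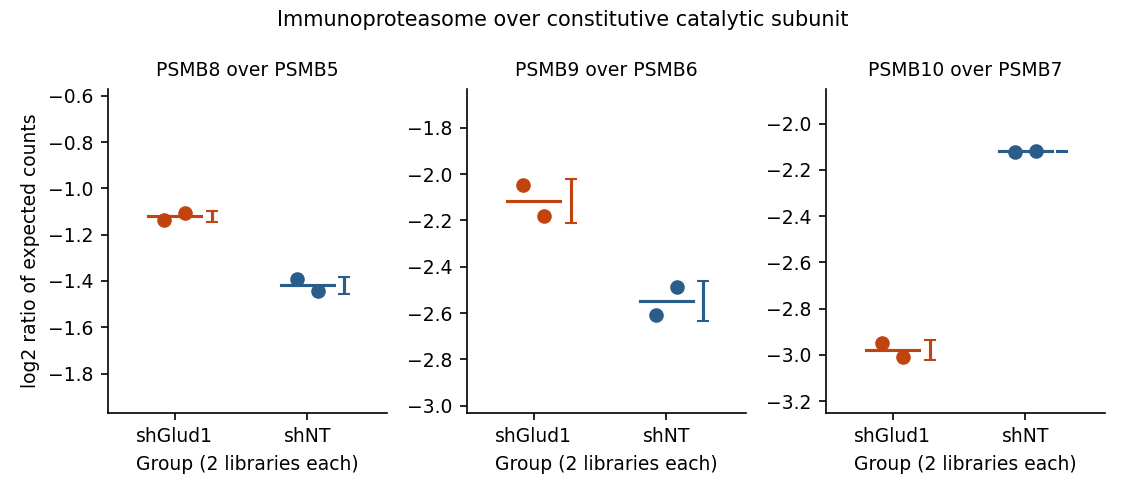
Points are the log2 ratios of expected counts in each library, horizontal lines are group means and the bars beside them 1 SD (n = 2 libraries per group), with axes of the same span in the 3 panels. PSMB10 over PSMB7 is lower in shGlud1 by 0.86, whereas PSMB8 over PSMB5 and PSMB9 over PSMB6 are higher by 0.30 and 0.43.

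Genes of the regulatory cap changed in both directions. Of the 20 tested, 8 (40.0%) were lower and 4 (20.0%) higher with TMM factors, beside 29.1% and 31.9% of all genes, with a median log2 fold change of -0.05. With total counts 2 (10.0%) were lower and 11 (55.0%) higher, with a median of 0.47, and those shares are near the 13.7% and 51.9% of all genes. The 6 ATPases, which form the ring that unfolds substrates, had a median of -0.37 with TMM factors. PSMC4 (-0.74), PSMC6 (-0.61), PSMC3 (-0.42) and PSMC5 (-0.32) were called lower, and PSMC1 (-0.04) and PSMC2 (0.17) were not called. With total counts the median was 0.15, PSMC1 and PSMC2 were called higher, and the other 4 were not called. The calls of PSMC3 and PSMC5 were lost without shNT replicate 1 (adjusted p = 0.248 and 0.303) and without shNT replicate 2 (0.0702 and 0.141).

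Of the 14 other cap genes 4 were lower and 4 higher with TMM factors, 28.6% each way and close to the shares over all genes. PSMD1, the large scaffold subunit at the base of the cap (ENSG00000173692, chromosome 2, 231056864 to 231172827, plus strand), had the highest log2 fold change of all proteasome genes. It had 92.8 and 106 CPM in the shGlud1 libraries, against 38.1 and 35.9 CPM in the shNT libraries. PSMD5, a chaperone of cap assembly that is not kept in the finished particle, had 29.5 and 36.6 CPM in the shGlud1 libraries, against 20.3 and 22.0 CPM in the shNT libraries. Both shGlud1 libraries lay above both shNT libraries in each gene, and the distance between groups was several times the distance between replicates in PSMD1. The log2 fold change of PSMD1 was 1.42 (SE 0.13) at an adjusted p of 8.04e-25 in edgeR's quasi-likelihood test, and with total counts it was 1.95 (adjusted p = 2.2e-22). That of PSMD5 was 0.64 (SE 0.15, adjusted p = 4.36e-05), and with total counts 1.17 (adjusted p = 4.01e-09). PSMD2, the partner scaffold that docks ubiquitin receptors and shuttles, averaged 1275 ± 21.4 CPM in shGlud1 and 836 ± 77.9 CPM in shNT (SD, n = 2 each), with a log2 fold change of 0.61 (adjusted p = 2.73e-04), and 1.13 with total counts. Its TMM call was lost without shNT replicate 2 (0.51, adjusted p = 0.103). PSMD12, of the lid, had 0.32 (adjusted p = 0.031), or 0.84 with total counts, and lost its call without shGlud1 replicate 2, without shNT replicate 1 and without shNT replicate 2 (adjusted p = 0.116, 0.182 and 0.161).

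Besides the ATPases named above, the cap genes called lower with TMM factors were PSMD8 (-1.08) and PSMD3 (-0.38) of the lid, PSMD4 (-0.73) and PSMD9 (-0.94). PSMD4 is a ubiquitin receptor and PSMD9 an assembly chaperone. PSMD8 and PSMD9 were also called lower with total counts. PSMD3, PSMC3 and PSMC5 had positive log2 fold changes with total counts, 0.14, 0.092 and 0.20, that were not called. PSMD3 lost its call without shNT replicate 1 (adjusted p = 0.242) and, narrowly, without shNT replicate 2 (adjusted p = 0.0506). The deubiquitinase PSMD14, which removes ubiquitin chains from substrates at the entrance, was not called with TMM factors (0.06) and was higher with total counts (0.58, adjusted p = 8.66e-06). PSMD6, PSMD7, PSMD10, PSMD11 and PSMD13 were not called with TMM factors and ranged between -0.31 for PSMD13 and 0.27 for PSMD11. With total counts PSMD6 (0.46), PSMD7 (0.75), PSMD10 (0.72) and PSMD11 (0.79) were called higher and PSMD13 (0.21) was not. The 3 assembly chaperones of the cap thus had 3 different calls, with PSMD5 higher, PSMD9 lower and PSMD10 not called (0.20), and the differences among them were not tested.

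Together the 48 genes took 1.18% and 1.17% of all expected counts in the shGlud1 libraries, against 1.21% and 1.17% in the shNT libraries. This total overlapped between the groups. The core took 0.508% and 0.483% in the shGlud1 libraries, against 0.604% and 0.587% in the shNT libraries. The cap took 0.564% and 0.583% in the shGlud1 libraries, against 0.494% and 0.469% in the shNT libraries. Neither share overlapped between groups, with an exact two-sided permutation p of 0.33 for each, whereas that for the total was 1.0. PSMD2, picked here after its values were seen, alone made up 25.7% and 27.5% of the cap's counts in the shGlud1 libraries, against 14.9% and 14.1% in the shNT libraries. Without PSMD2 the cap took 0.420% and 0.423% in the shGlud1 libraries, against 0.421% and 0.403% in the shNT libraries, and the groups overlapped. The median log2 fold change of the cap exceeded that of the core by 0.76, a difference that library scaling leaves nearly as it is.

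Among the activators, which open the core without the cap, PSME4 and PSME2 changed in opposite directions. PSME4, the single-chain activator PA200 (ENSG00000068878, chromosome 2, 53864067 to 53970840, minus strand), had 29.04 and 38.8 CPM in the shGlud1 libraries, against 14.7 and 17.3 CPM in the shNT libraries. PSME2, which with PSME1 forms the interferon-inducible PA28 ring, had 160 and 140.3 CPM in the shGlud1 libraries, against 239.9 and 239 CPM in the shNT libraries. PSME1 had 134 and 127 CPM in the shGlud1 libraries, against 133 and 144 CPM in the shNT libraries. The groups were separate in PSME4 and PSME2, and overlapped in PSME1. PSME4 had a log2 fold change of 1.09 (SE 0.15, adjusted p = 1.1e-11), PSME2 -0.68 (SE 0.13, adjusted p = 2e-06) and PSME1 -0.09 (SE 0.13, adjusted p = 0.564) in edgeR's quasi-likelihood test. PSME3, the nuclear member of the family, had 84.1 and 85.8 CPM in the shGlud1 libraries, against 91.6 and 80.6 CPM in the shNT libraries, and its values overlapped as well (log2 fold change -0.02, SE 0.13, adjusted p = 0.91). With total counts PSME4 (1.61), PSME1 (0.43) and PSME3 (0.50) were called higher and PSME2 (-0.16) was not called. PSMF1, which inhibits the core in the test tube, had 56.0 and 56.8 CPM in the shGlud1 libraries, against 65.6 and 62.9 CPM in the shNT libraries. Its groups did not overlap, but its log2 fold change of -0.19 (SE 0.13) was not called (adjusted p = 0.206), and with total counts it was 0.33 (adjusted p = 0.0182).

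The PSMG chaperones build the alpha ring, PSMG1 paired with PSMG2 and PSMG3 with PSMG4. PSMG1 had 64.0 and 58.9 CPM in the shGlud1 libraries, against 102 and 97.3 CPM in the shNT libraries. PSMG3 had 60.8 and 44.8 CPM in the shGlud1 libraries, against 113 and 113 CPM in the shNT libraries. PSMG4 had 25.2 and 16.8 CPM in the shGlud1 libraries, against 37.3 and 37.9 CPM in the shNT libraries. These 3 were low in both shGlud1 libraries, with log2 fold changes of -0.70 for PSMG1 (SE 0.13, adjusted p = 2.94e-07), -1.10 for PSMG3 (SE 0.13, adjusted p = 4.38e-16) and -0.84 for PSMG4 (SE 0.15, adjusted p = 3.17e-08) in edgeR's quasi-likelihood test. PSMG4 had the widest gap between shGlud1 replicates of all 46 genes, 0.59 on the log2 scale. PSMG2 had 47.0 and 46.9 CPM in the shGlud1 libraries, against 39.2 and 44.2 CPM in the shNT libraries, and its log2 fold change of 0.17 (SE 0.14, adjusted p = 0.273) was not called. PSMG1 and its partner PSMG2 thus differed in call, a difference that was not itself tested. With total counts PSMG3 (-0.59) was called lower, PSMG2 (0.69) higher, and PSMG1 (-0.18) and PSMG4 (-0.33) were not called.

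Fold change went with gene length in these libraries, and proteasome genes differ widely in length. Over the 12495 tested genes with a coding length in GENCODE 29, the Spearman correlation of log2 fold change with coding length was 0.441. Over the 45 proteasome genes with one it was 0.52, and without PSMD1, PSMD2 and PSME4 it was 0.411 over 42. These are descriptions across genes of the same 4 libraries, and genes are not independent replicates. The genes called lower had a median coding length of 789 nt, and those called higher 2118 nt. The core genes, all between 603 and 831 nt, hardly differ in coding length. There the correlation was 0.124 over 13, while in the cap it was 0.48 over 20. So narrow a range can hardly show a trend, and the value does not speak to the length of the whole transcript. Removing a trend on the longest transcript moved PSMB7 from -0.76 to -0.14 but PSMA6 from -1.26 to -1.57. Length also separated the shGlud1 replicates: the correlation of the ratio of replicate 1 to replicate 2 with the length of the longest transcript was -0.332 in shGlud1 and -0.0364 in shNT. The part of length in the results was not tested beyond the following step.

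When a smooth trend of each library's counts on coding length was removed, a step chosen after the data were seen, 23 of the 45 genes (51.1%) were lower and 6 (13.3%) higher. Of all genes tested in the same way 29.9% were lower and 28.3% higher. The median of the 45 was -0.30, beside 0.006 for all genes. Of the core 10 of 13 were lower, with a median of -0.57, and PSMB2 was higher at 0.69 (adjusted p = 1.1e-06). PSMB10 (-1.41) and PSMA6 (-1.01) remained lower, and PSMD1 (0.86, adjusted p = 1.92e-09) and PSMD5 (0.46, adjusted p = 3.64e-03) remained higher. The 7 calls lost were those of PSMD2 (0.07, adjusted p = 0.664), PSME4 (0.25, adjusted p = 0.147), PSMD12 (0.21), PSMB8 (-0.20), PSMB9 (-0.19), PSMA1 (-0.21) and PSMG4 (-0.25). Newly called were PSMD10 (0.50), PSMG2 (0.39) and PSMD7 (0.33), which were higher, and PSMD13 (-0.30), which was lower. The cap's median then exceeded the core's by 0.48. With a trend on the longest annotated transcript, the planned step, in place of coding length the excess was 0.16. The median of the 45 was then -0.27, beside -0.008 for all genes. In that step PSMD2 (0.48), PSME4 (0.51), PSMB9 (-0.42) and PSMG4 (-1.14) kept their calls, unlike with coding length. Calls with TMM factors that it lost were those of PSMA1, PSMA7, PSMB2, PSMB5, PSMB7, PSMB8, PSMC3, PSMC5, PSMD4 and PSMD12. It newly called PSMA5 (-0.43), PSMC1 (-0.31), PSMD6 (-0.35) and PSMF1 (-0.44) lower. Newly higher were PSME1 (0.49), PSMD7 (0.64), PSMD10 (0.66) and PSMG2 (0.57). In that step 22 of the 45 (48.9%) were lower and 8 (17.8%) higher, and of the core 8 of 13 were lower. The shares over all genes in that step were not counted. In the plot of fold change against coding length, 29 of the 45 genes lie below the curve of all genes and 16 above it.

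**Figure D3:**
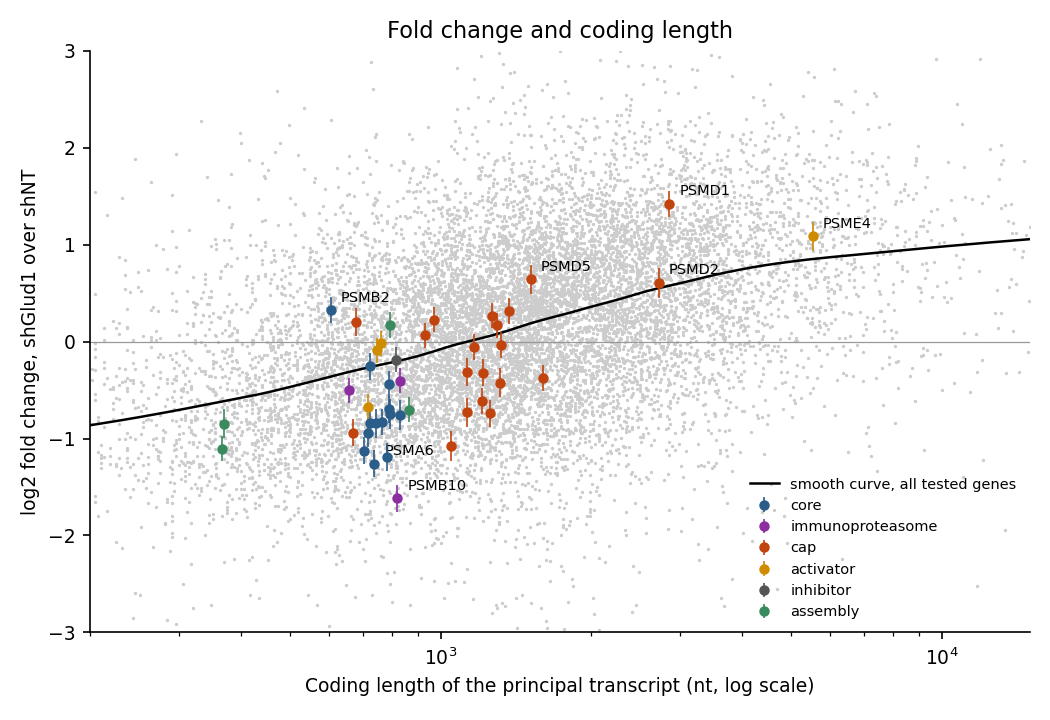
The x axis is the coding length of each gene in nt on a log scale and the y axis its log2 fold change with TMM factors, shGlud1 over shNT, with grey points for all tested genes, a black smooth curve through them and coloured points with 1 SE for 45 proteasome genes. The core genes cluster between 603 and 831 nt and, apart from PSMB2 and PSMA5, below the curve, while PSMD1 lies above it and PSMD2 and PSME4 close to it.

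**Figure D4:**
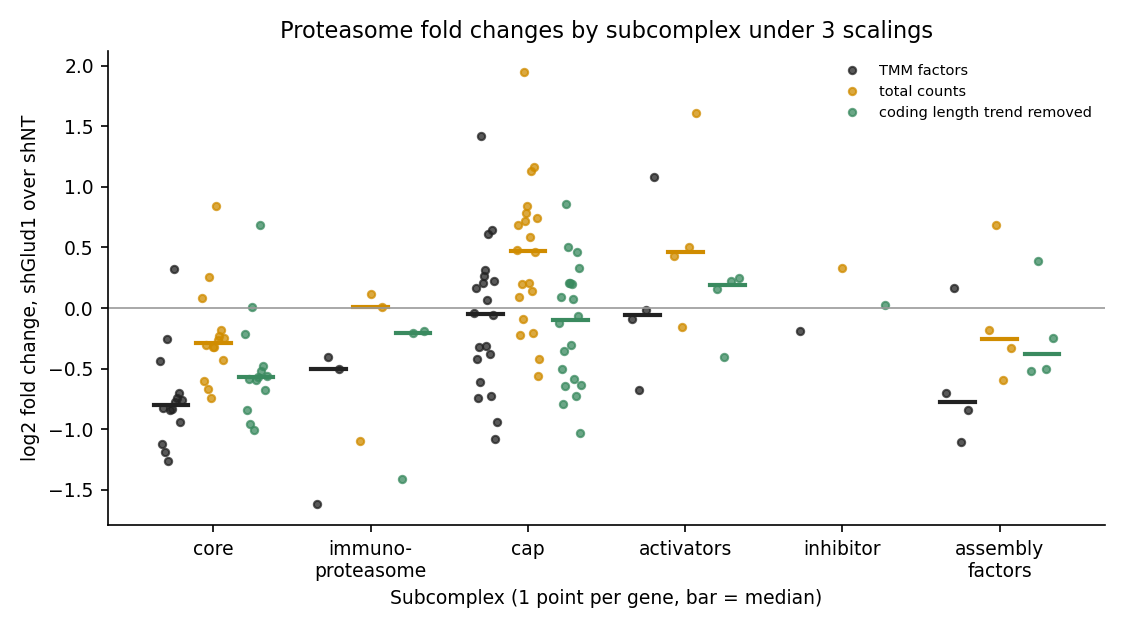
Points are the log2 fold changes, shGlud1 over shNT, of the tested proteasome genes by subcomplex, with bars for medians, under TMM factors (black), total counts (yellow) and removal of the coding length trend (green). The core median is below 0 on all 3 scales, at -0.80, -0.29 and -0.57, and the cap median is -0.05, 0.47 and -0.10.

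Of 12 subunits and partners without a PSM name, all tested, 4 (33.3%) were lower and 6 of the 12 higher with TMM factors, beside 29.1% and 31.9% of all genes. With total counts 4 (33.3%) were lower and 7 (58.3%) higher, beside 13.7% and 51.9% of all genes. With the coding length trend removed 5 (41.7%) were lower and 5 (41.7%) higher, beside 29.9% and 28.3% of all genes. The lower ones were the ubiquitin receptor ADRM1 (-1.21), the small lid subunit SHFM1 (-1.17), the core maturation factor POMP (-1.16) and the cap-associated thioredoxin TXNL1 (-0.98). Their direction held with total counts, at -0.70, -0.65, -0.64 and -0.45, all called. The higher ones were the proteasome adaptor KIAA0368 (1.23), the deubiquitinases USP14 (0.98) and UCHL5 (0.75), the ubiquitin ligase UBE3C (0.68), the ATPase-binding PAAF1 (0.59) and AKIRIN2 (0.46), which brings proteasomes into the nucleus. Of these AKIRIN2 lost its call when a library was left out (0.34 to 0.55), and UBE3C with the coding length trend removed (0.05, adjusted p = 0.787 by edgeR). UCHL5 (0.35, adjusted p = 0.103) and PAAF1 (0.235, adjusted p = 0.154) lost theirs in edgeR with the longest-transcript trend removed. UBE3A (-0.12) and FBXO7 (0.26) were not called, and FBXO7 was called higher with total counts (0.78). With the longest-transcript trend removed UBE3A (-0.77) and FBXO7 (-0.305) were called lower, and with the coding length trend removed UBE3A alone (-0.625).

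Of 12 genes of the NFE2L1 route of proteasome gene induction 11 were tested, of which 3 (27.3%) were lower and 5 (45.5%) higher with TMM factors, beside 29.1% and 31.9% of all genes. With total counts 1 (9.09%) was lower and 7 (63.6%) were higher, beside 13.7% and 51.9% of all genes. With the coding length trend removed 3 (27.3%) were lower and 2 (18.2%) higher, beside 29.9% and 28.3% of all genes. NFE2L1 itself had 482 and 507 CPM in the shGlud1 libraries, against 599 and 521 CPM in the shNT libraries, with groups that did not overlap. It was not called (log2 fold change -0.18, SE 0.15, adjusted p = 0.288 by edgeR), with total counts it was higher at 0.34 (adjusted p = 5.66e-03), and with the coding length trend removed it was lower at -0.62 (adjusted p = 1.53e-05), as it was with the longest-transcript trend removed (-0.50, adjusted p = 1.85e-04). Its small MAF partners MAFF (-1.49), MAFG (-0.50) and MAFK (-0.49) were lower, but with total counts MAFF alone was called (-0.97), and MAFG and MAFK had 0.018 and 0.029. BACH1 (1.18), a repressor at the same elements, and NFE2L2 (0.80) were higher on both scales, as were VCP (0.37), NGLY1 (0.36) and SEL1L (0.33), which draw NFE2L1 out of the endoplasmic reticulum or remove its sugars, but with the coding length trend removed VCP (-0.09) and SEL1L (-0.13) had negative signs and NGLY1 had 0.03. When a library was left out, VCP, NGLY1 and SEL1L lost their calls, with a highest adjusted p of 0.365, 0.493 and 0.204. DDI1 was at 0 in all 4 libraries, DDI2 (0.47) and SYVN1 (-0.31) were not called, and with total counts DDI2 was higher (1.00). SYVN1 was called lower with the coding length trend (-0.609) or the longest-transcript trend (-0.603) removed.

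Of 9 shuttles and unfolding cofactors that bring substrates to the proteasome 8 were tested, of which 2 (25.0%) were lower and 5 (62.5%) higher with TMM factors, beside 29.1% and 31.9% of all genes. With total counts 1 (12.5%) was lower and 6 (75.0%) were higher, beside 13.7% and 51.9% of all genes. With the coding length trend removed 2 (25.0%) were lower and 3 (37.5%) higher, beside 29.9% and 28.3% of all genes. UBQLN2 (1.24), RAD23B (1.10), FAF2 (1.02), UBQLN1 (0.52) and NPLOC4 (0.36) were higher, the last with a negative sign (-0.06) under the longest-transcript trend, and UBXN1 (-0.88) and UFD1L (-0.62) were lower. NPLOC4 and UFD1L, which bind each other as the cofactor of VCP, had opposite signs with TMM factors and with total counts, but UFD1L was not called with total counts (-0.10, adjusted p = 0.426). UBQLN1 and NPLOC4 lost their calls when a library was left out (0.39 to 0.66 and 0.27 to 0.46). With the coding length trend removed neither was called in edgeR (0.25, adjusted p = 0.0962, and 0.07, adjusted p = 0.65). With the longest-transcript trend removed UBQLN1 had 0.03 (adjusted p = 0.855 by edgeR). UBQLN4 (0.067) was not called and was higher with total counts (0.59), and FAF1 had too few counts to test.

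Of 8 tested genes of interferon signalling, which induces the immunoproteasome, 6 (75.0%) were higher and 2 (25.0%) lower with TMM factors, beside 31.9% and 29.1% of all genes. With total counts 6 (75.0%) were higher and 0 lower, beside 51.9% and 13.7% of all genes. With the coding length trend removed 3 (37.5%) were higher and 2 (25.0%) lower, beside 28.3% and 29.9% of all genes. JAK1, a kinase of interferon receptors, had 52.8 and 57.6 CPM in the shGlud1 libraries, against 20.8 and 25.7 CPM in the shNT libraries, with no overlap and a log2 fold change of 1.24 (SE 0.14, adjusted p = 1.48e-17 by edgeR). IRF2 (1.32), JAK2 (1.21), the receptor chain IFNGR2 (0.68), NLRC5 (0.57) and STAT2 (0.52) were higher too, though with the coding length trend removed NLRC5 (-0.27), STAT2 (0.02) and JAK2 (0.56) were not called. IRF1 (-0.54) and the receptor chain IFNGR1 (-0.58) were lower with TMM factors, and had -0.02 and -0.06 with total counts, which were not called. STAT2 and IFNGR1 lost their calls when a library was left out (highest adjusted p = 0.107 and 0.19).

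Some proteasome genes share reads with a neighbour or a copy. Of the 47 whose Ensembl ID was found in GENCODE 29, 19 have an exon that overlaps one on the opposite strand. Among them are PSMD1 with HTR2B, PSME4 with ACYP2, PSMG3 with PSMG3-AS1 and PSME2 with RNF31, and without strand such reads cannot be told apart. In 12 genes at least 1 library held a count that was not whole, and PSMA2, PSMA6, PSMB10, PSMC1, PSMC5 and PSMG2 had none that was whole. The values of these genes depend on how the counting divided reads.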

How the data were processed

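Poly-A RNA of 4 U87 libraries (2 shGlud1, 2 shNT) was sequenced, paired-end, per the labels' protocols. The authors deposited expected counts per gene, with fractions in 20.1% of the values above 0. The submitters' processing notes name Bowtie 0.12.2 and a mouse build, mm8, but all 57820 rows carry human Ensembl IDs, so the build used is uncertain. Which program and annotation gave the counts is not given in the sources.

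Rounded counts were compared in edgeR 4.0.16 (R 4.3.3) with filterByExpr (minimum count 10), TMM factors and the robust quasi-likelihood test over 14616 genes. P-values were adjusted by Benjamini-Hochberg over these genes, and a gene was called under 0.05. The SE is the absolute log2 fold change over the square root of F. Alternatives were DESeq2 1.42.0, limma-voom 3.58.1, RLE factors, total counts, other filters, a replicate block, leaving out each library, summing repeated symbols, and removal of a trend (lowess, span 0.3) on the longest transcript or, added after seeing the data, the coding length of GENCODE 29. Lengths were matched by Ensembl ID, and the ID that PSMB3 has in the matrix was not found there, so PSMB3 has no length.

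Replicates differed by more than sampling noise (chi-square per degree of freedom 15.0 in shGlud1 and 5.81 in shNT), and each library was kept. PCR copies are not independent molecules, so a floor of 3 counts, 0.13 to 0.22 CPM by library, covers counting error only. The edgeR step was tested on simulated data. Python 3.11.15, numpy 2.4.6, pandas 2.3.3, scipy 1.17.1 and matplotlib 3.10.9 were used for the rest. The members and gene lists were chosen with earlier results of these data known. Of the lists, 3 genes are not reported here and are left out of their counts. Full values are given for the 3 lowest and 3 highest called members, the catalytic and immunoproteasome subunits and the PSME, PSMF and PSMG genes, and fold changes for the others.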

Additional observations from a re-analysis of the deposited data

How the results depend on the processing

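Of the 33 calls, 13 kept direction and call under all 14 alternatives that gave a value: PSMA2, PSMA3, PSMA4, PSMA6, PSMB1, PSMB3, PSMB6, PSMB10, PSMD1, PSMD5, PSMD8, PSMD9 and PSMG3 (PSMB3 has no length and so no value under the trend removals). How many calls over all genes kept both was not counted. With the replicate block 27 members were lower and 6 higher and no call of the 46 changed. The correlation over tested genes of same-numbered replicate differences was 0.0409. It cannot show whether same-numbered libraries were made together, which the labels do not give. Leaving out 1 library changed the numbers called, with the fewest higher without shNT replicate 2, and shares over all genes were not counted. Medians of the tested members were -0.539 and -0.341 without shGlud1 replicate 1 and 2, and -0.417 and -0.485 without shNT replicate 1 and 2. Those of all genes were 0.051, 0.038, 0.07 and 0.081 in the same order. In these fits the lone library of a group is assumed to vary like the other group. Total counts gave 12 lower and 18 higher and medians of 0.087 for all members, -0.287 for the core, 0.008 for the immunoproteasome, 0.472 for the cap, 0.465 for the activators and -0.258 for the assembly factors. Removing the coding length trend gave medians of -0.572 for the core, -0.205 for the immunoproteasome, 0.191 for the activators and -0.376 for the assembly factors. The longest-transcript trend gave -0.271 for all members, -0.291 for the core, -0.134 for the cap and 0.184 for the activators. The activator median was -0.108 with RLE factors and -0.005 without a filter. With 2 libraries a group and their differences in scale and length, the cause of these moves was not tested. Levels near the floor of 3 counts were not detectable at this depth.

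Signs turned with total counts for PSMC5 (0.20), PSME1 (0.43), PSMC1 (0.48), PSMD3 (0.14), PSMF1 (0.33), PSMA1 (0.083), PSME3 (0.50), PSMA5 (0.26), PSMD6 (0.46), PSMC3 (0.092), PSMD13 (0.21), PSMB8 (0.11), PSMB9 (0.008), UBE3A (0.40), NFE2L1 (0.34), SYVN1 (0.20), MAFG (0.018) and MAFK (0.029). With the coding length trend removed they turned for PSME1 (0.16), PSMF1 (0.022), PSME3 (0.22), PSMA5 (0.008), SEL1L (-0.13), VCP (-0.091), MAFK (0.013), UBQLN4 (-0.21) and NLRC5 (-0.27). With the longest-transcript trend removed they turned for PSME1 (0.49), PSMD14 (-0.27), PSMA1 (0.022), PSMC3 (0.013), FBXO7 (-0.30), DDI2 (-0.20), SEL1L (-0.28), UBQLN4 (-0.082) and NPLOC4 (-0.063). Without a filter PSMC1 (0.011) and PSME3 (0.032) turned. When a library was left out, signs turned without shNT replicate 1 for PSME3 (range -0.11 to 0.075) and without shNT replicate 2 for PSMD6 (-0.14 to 0.030), for UBE3A (-0.32 to 0.10) and UBQLN4 (-0.034 to 0.17). Cell markers were left out of these lists of signs. The cause was not tested.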
